A study of Mus musculus with 12 samples.

Results

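The genes described here are the hormones of the islet cells that do not make insulin, with a pair of delta-cell genes. They were chosen by name: glucagon (Gcg), somatostatin (Sst), pancreatic polypeptide (Ppy), peptide YY (Pyy) and ghrelin (Ghrl), with the transcription factor Hhex and the retinol carrier Rbp4. All 7 were found among the 24421 genes of the count files, and all 7 were among the 13583 genes tested. Bulk RNA was sequenced from islets, the hormone-secreting clusters of the pancreas, in 12 libraries. Of these, 6 came from Il22ra1βKO mice (BKO), in which, per the study's title and design, β cells lack interleukin-22 receptor subunit alpha 1, and 6 came from Ins2Cre mice (Cre), against which they are compared. Mice of both genotypes had been fed a high-fat diet for 6 weeks. Ins2Cre names a recombinase driven by an insulin gene promoter, which is active in β cells. In which cells the recombinase acted was not tested. The labels do not say whether the BKO mice carry the same transgene. The age and sex of the mice, and whether a library is 1 mouse or a pool, are not stated by the labels, so the p-values reflect the spread among libraries, which may be technical.

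Islets hold several endocrine cell types beside the insulin-producing β cells. Alpha cells secrete glucagon, which raises blood glucose, and delta cells secrete somatostatin, which restrains the release of both insulin and glucagon from neighbouring cells. PP cells secrete pancreatic polypeptide and epsilon cells secrete ghrelin, while peptide YY, a paralog of pancreatic polypeptide, is made by several of these types. Hhex is needed for delta cells to form in the mouse, and Rbp4, which carries retinol in plasma, is enriched in mouse delta cells.

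Gene read totals lay between 10356093 and 11902217 in BKO libraries and between 11444273 and 12397139 in Cre libraries. Il22ra1 itself held between 1 and 5 reads per library, 13 in all BKO libraries and 16 in all Cre libraries, which is too few to check the genotype labels. Across all genes, the quasi-likelihood test of edgeR, adjusted by the Benjamini-Hochberg method, called 0 of 13583 (0%) at an adjusted p under 0.05, and 1182 (8.7%) were higher in BKO and 633 (4.66%) lower at an unadjusted p under 0.05. Without BKO-4 it called 262 genes, without Cre-5 110, without Cre-1 6 and without BKO-3 5. DESeq2 called 169 genes higher (1.24%) and 54 lower (0.398%). The insulin genes Ins1 and Ins2 together took 9.67% ± 1.38 of gene reads in BKO and 10.4% ± 0.946 in Cre (SD, n = 6 each).

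The 4 peptide hormones of high level lie on 3 chromosomes. In the GENCODE annotation of GRCm38 (mm10), Gcg lies on chromosome 2 from 62474530 to 62483650 and Sst on chromosome 16 from 23889573 to 23890958, each on the minus strand. Ppy (102099930 to 102101319) and Pyy (102106676 to 102107832) are neighbours on the minus strand of chromosome 11, with 5356 bases between them. Ghrl lies on chromosome 6 from 113716119 to 113719880, Hhex on chromosome 19 from 37434810 to 37440731, and Rbp4 on chromosome 19 from 38116629 to 38125281. No other annotated gene overlaps Gcg, Sst, Ppy, Pyy, Hhex or Rbp4, whereas Ghrl overlaps Gm26982 and Gm44033 on the opposite strand. The labels do not state whether counting used strand, so reads of Ghrl and of those genes cannot be told apart.

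The promoters of the 4 hormones of high level are shown. Their transcripts went up and down together from library to library, as described further on, and those of Hhex and Rbp4 did so with them. No link between promoter sequence and transcript level was tested. Each line gives the 100 bases before the RefSeq start (GRCm38.p6), 5′ to 3′ on the gene's own minus strand, at chr2:62483654-62483753 for Gcg, chr16:23890845-23890944 for Sst, chr11:102101320-102101419 for Ppy and chr11:102107833-102107932 for Pyy, the first of the 2 starts listed for that gene. Capitals mark matches to the motifs searched.
Gcg: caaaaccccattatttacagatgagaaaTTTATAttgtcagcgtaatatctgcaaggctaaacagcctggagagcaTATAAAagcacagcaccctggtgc
Sst: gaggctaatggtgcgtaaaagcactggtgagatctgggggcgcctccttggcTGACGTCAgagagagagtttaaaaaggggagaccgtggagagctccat
Ppy: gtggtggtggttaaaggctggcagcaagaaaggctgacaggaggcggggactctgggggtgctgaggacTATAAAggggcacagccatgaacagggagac
Pyy: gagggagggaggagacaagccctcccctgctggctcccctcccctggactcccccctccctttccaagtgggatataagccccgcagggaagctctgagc
Searched on both strands were the cyclic AMP response element TGACGTCA, the TATA box TATAAA and the homeodomain core TAATTA, none of which overlapped another in these windows. The Sst window held TGACGTCA, with its first base 48 bases before the start, a sequence found in 1.15% of 32851 RefSeq promoter windows of the same length. TATAAA stood 24 bases before the start of Gcg and 31 before that of Ppy, and its reverse complement 72 before that of Gcg, against 5.56% of all windows with a match on either strand. The Pyy window held none of the 3 motifs, and TAATTA, found in 1.61% of all windows, was in none of the 4.

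Per base of transcript the hormones of alpha, PP and delta cells stood far above the other genes, in nearly the same order in every library. Levels were set on the same scale as CPM, the read count scaled to library size, per kilobase of annotated exon, which understates a gene whose annotation includes long, rarely used exons. Gcg stood at 11476 ± 2872 CPM per kilobase in BKO and 7703 ± 1131 in Cre (SD, n = 6 each). Ppy followed at 8907 ± 2415 in BKO and 7311 ± 2042 in Cre, then Pyy at 2714 ± 621 in BKO and 2283 ± 470.3 in Cre, and Sst at 2411 ± 378 in BKO and 1912 ± 305 in Cre. Far below these came Rbp4, at 112 ± 24.4 in BKO and 90.1 ± 13.7 in Cre, Ghrl at 3.49 ± 1.66 in BKO and 4.67 ± 2.76 in Cre, and Hhex at 3.38 ± 0.710 in BKO and 2.64 ± 0.348 in Cre. Gcg was above Ppy in all 6 BKO libraries and in 4 of 6 Cre libraries, the exceptions being Cre-1 and Cre-5. Pyy was above Sst in 11 of the 12 libraries, all but Cre-4, although the ranges of the pair overlapped within each genotype. Ppy was above Pyy, Sst above Rbp4, and Rbp4 above Ghrl in all 12. Ghrl and Hhex had no fixed order, with Ghrl higher in 3 of 6 BKO libraries and 5 of 6 Cre libraries. For comparison on this scale, Ins2 stood at 54278 ± 11104 in BKO and 57015 ± 6513 in Cre.

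Hormone transcripts of the alpha, delta and PP cells were on average higher in BKO islets, with glucagon furthest apart, and none of the 7 genes passed the main edgeR test over all genes. Of the 7, 6 had a positive log2 fold change of BKO over Cre, against 52.8% of all genes tested, and Ghrl had a negative one. The median was 0.31 over the 7 genes and 0.0078 over all genes. At an adjusted p under 0.05 edgeR called 0 of the 7 (0% of all genes were called), and at an unadjusted p under 0.05 it gave 4 of them as higher (8.7% of all genes) and 0 as lower (4.66%). DESeq2 called 1 of the 7, Gcg, as higher (1.24% of all genes). With the replicate number as a block, edgeR called 292 of 13583 genes higher, Gcg, Sst, Pyy and Rbp4 among them, but the labels do not say what that number means. In none of the 7 were the genotypes fully apart, as they were in 0.331% of all genes with BKO higher and in 0.177% with BKO lower. In whole islets, more cells of a type cannot be told apart from more RNA per cell.

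**Figure D1:**
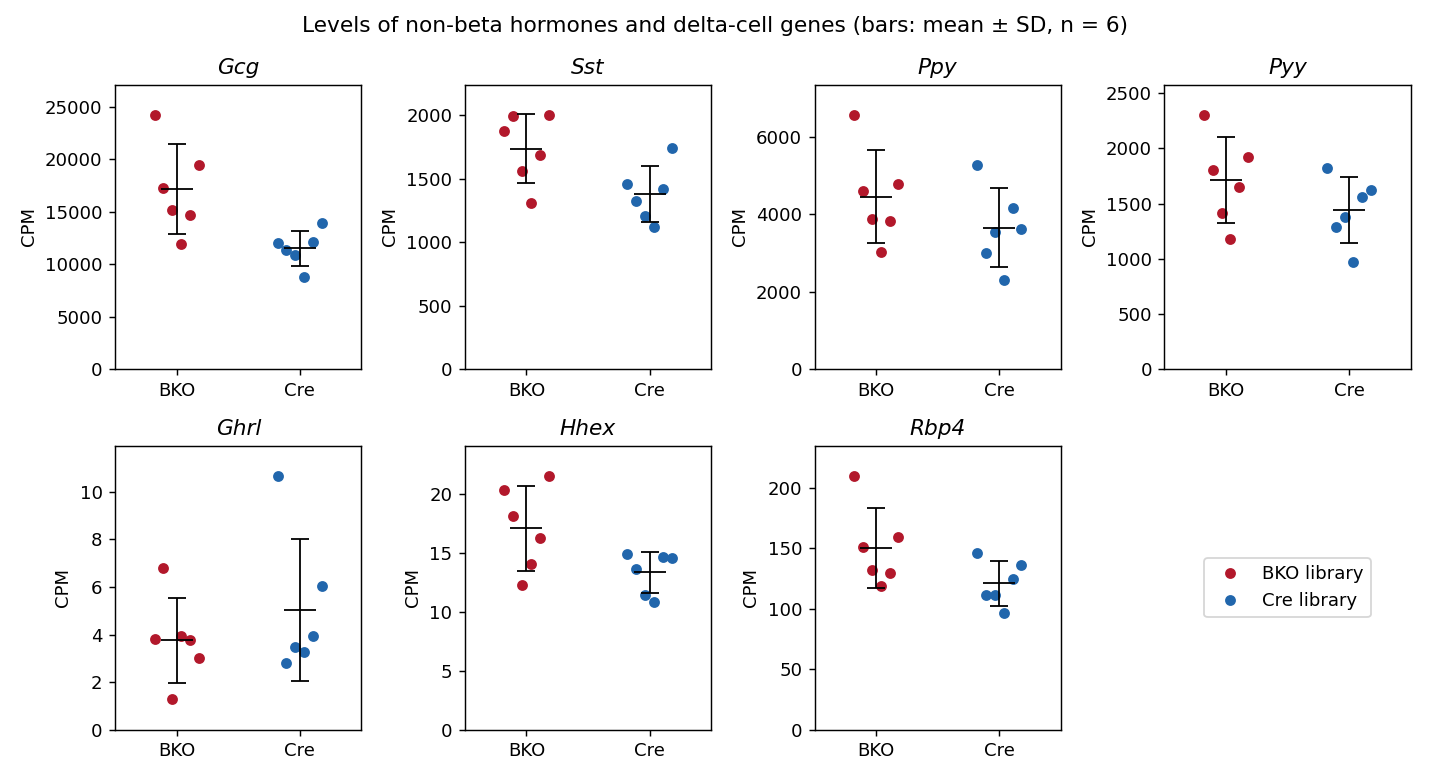
CPM of each of the 7 genes in every library, BKO left and Cre right, with points for libraries and bars for the mean ± SD (n = 6 each); each axis starts at 0. Of the 6 BKO libraries, 5 lie above the highest Cre library in Gcg and 4 in Hhex, while for Ghrl Cre-1 lies above all others at 10.7 CPM.

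Gcg encodes proglucagon, the precursor of glucagon in alpha cells. Its reads took 1.71% ± 0.411 of gene reads in BKO and 1.15% ± 0.174 in Cre (SD, n = 6 each). The lowest, median and highest BKO libraries had 11956, 16237 and 24214 CPM, against 8759, 11694 and 13895 CPM in Cre libraries. All BKO libraries but BKO-4 were above the highest Cre library, and 3 Cre libraries were below the lowest BKO library. Means were 17144 ± 4290.04 CPM across BKO and 11508 ± 1689 across Cre libraries (SD, n = 6 each), a fold of 1.49. The log2 fold change was 0.58 ± 0.15 (SE), with 6 of 6 BKO libraries above the Cre mean and an adjusted p of 0.159 over all genes by edgeR's quasi-likelihood test. An exact two-sided permutation test of 6 against 6 libraries on log2 CPM, a single unadjusted test, gave p = 0.00866, where 0.00216 is the smallest p it can give. DESeq2 gave Gcg an adjusted p of 0.0497 and limma-voom 0.0695. Without BKO-4, the lowest BKO library, edgeR gave a log2 fold change of 0.64 with an adjusted p of 0.0311. Leaving out any 1 of the other 11 libraries gave no call (edgeR adjusted p between 0.123 and 0.363), and the log2 fold change was 0.44 without BKO-1.

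Sst encodes the somatostatin precursor of delta cells. BKO libraries had a lowest, median and highest level of 1309, 1783 and 2001 CPM, against 1118, 1373 and 1744 CPM in Cre libraries. The groups overlapped, with 3 BKO libraries above the highest Cre library, Cre-6, and 2 Cre libraries below the lowest BKO library, BKO-4. The means were 1738 ± 273 CPM across BKO and 1379 ± 220.1 across Cre libraries (SD, n = 6 each). The log2 fold change was 0.33 ± 0.12 (SE), with 5 of 6 BKO libraries above the mean of Cre (adjusted p = 0.245 by edgeR; p = 0.0390 by the exact two-sided permutation test).

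Hhex and Rbp4, the delta-cell genes that are not hormones, had fold changes close to that of Sst. Hhex ran at 12.3, 17.2 and 21.5 CPM (lowest, median, highest) in BKO libraries, against 10.9, 14.1 and 14.9 CPM in Cre libraries, from between 123 and 236 reads per library. BKO-3 and BKO-4 lay within the Cre range and the other 4 BKO libraries above it. Its log2 fold change was 0.36 ± 0.13 (SE; 5 of 6 BKO libraries above the Cre mean, adjusted p = 0.251 by edgeR; p = 0.0519 by the exact two-sided permutation test). Rbp4 ran at 119, 142 and 209.7 CPM in BKO libraries, against 96.2, 118 and 146 CPM in Cre libraries. BKO-1 stood highest of all, 3 BKO libraries were above the highest Cre library, and 3 Cre libraries were below the lowest BKO library. The log2 fold change of Rbp4 was 0.31 ± 0.14 (SE; 5 of 6 above the Cre mean, adjusted p = 0.359 by edgeR; p = 0.0649 by the exact two-sided permutation test), and it was 0.19 without BKO-1.

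The pancreatic polypeptide family varied more between libraries of a genotype than it differed between genotypes. Ppy ran at 3035, 4249 and 6561 CPM (lowest, median, highest) in BKO libraries, against 2298, 3591 and 5289 CPM in Cre libraries. BKO-1 alone was above the highest Cre library, Cre-1, and the coefficient of variation was 27.1% in BKO and 27.9% in Cre. Its log2 fold change was 0.28 ± 0.22 (SE; 5 of 6 BKO libraries above the Cre mean, adjusted p = 0.640 by edgeR; p = 0.240 by the exact two-sided permutation test). Pyy ran at 1183, 1728 and 2300.5 CPM in BKO libraries, against 970.2, 1471 and 1823 CPM in Cre libraries. Only BKO-1 and BKO-6 exceeded the highest Cre library. The log2 fold change of Pyy was 0.25 ± 0.17 (SE; 4 of 6 above the Cre mean, adjusted p = 0.606 by edgeR; p = 0.227 by the exact two-sided permutation test). Without BKO-1 the log2 fold changes were 0.14 for Ppy and 0.14 for Pyy.

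Ghrl, the ghrelin gene of epsilon cells, was low in whole islets, with 14 to 124 reads per library. It ran at 1.28, 3.79 and 6.80 CPM (lowest, median, highest) in BKO libraries, against 2.81, 3.72 and 10.7 CPM in Cre libraries. The medians almost coincided, while BKO-3 was the lowest and Cre-1 the highest library. The log2 fold change was -0.42 ± 0.38 (SE), with 5 of 6 BKO libraries below the mean of Cre (adjusted p = 0.710 by edgeR; p = 0.394 by the exact two-sided permutation test). Without Cre-1 it was -0.072.

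Most markers of endothelial, acinar and mesenchymal cells were also on average higher in BKO islets, and their values belong beside these fold changes. No marker was called by edgeR, while 10 of 10 endothelial, 6 of 10 stellate and mesenchymal, 4 of 11 duct and 0 of 12 acinar markers were higher at an unadjusted p under 0.05 (8.7% of all genes). DESeq2 called 8 endothelial, 2 stellate and mesenchymal and 2 duct markers higher (1.24% of all genes). All 10 endothelial markers had a positive log2 fold change (median 0.46), with a summed level between 522 and 716 CPM in BKO libraries and between 406 and 574 CPM in Cre libraries. Acinar markers had 12 of 12 positive (median 0.56), with sums of 1522 to 5465 CPM in BKO and 248 to 6945 CPM in Cre, so that the Cre libraries spanned the wider range. Duct markers had 7 of 11 positive (median 0.16; 3045 to 4212 CPM in BKO, 3053 to 3745 CPM in Cre), and stellate and mesenchymal markers 9 of 10 (median 0.36; 172 to 257 CPM in BKO, 125 to 222 CPM in Cre). Macrophage markers had 2 of 10 positive (median -0.30; 156 to 211 CPM in BKO, 171 to 230.04 CPM in Cre; 1 called higher and 1 lower by DESeq2) and Schwann cell markers 1 of 4 tested (median -0.078; 135 to 172 CPM in BKO, 155 to 179 CPM in Cre). No marker of these lists was at 0 in all libraries. With the mean log2 CPM of the acinar markers as a covariate, the log2 fold change was 0.68 for Gcg, 0.42 for Sst, 0.41 for Hhex and 0.40 for Rbp4. It was 0.35 for Ppy, 0.33 for Pyy and -0.40 for Ghrl, with edgeR adjusted p-values over the 7 genes from 0.418 (Gcg) to 0.882 (Ghrl). With that of the endothelial markers, which itself differed by genotype, the log2 fold change was 0.56 for Gcg, 0.29 for Rbp4, 0.11 each for Sst, Hhex and Ppy, 0.043 for Pyy and -1.24 for Ghrl, with edgeR adjusted p-values of 0.991 or more.

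**Figure D2:**
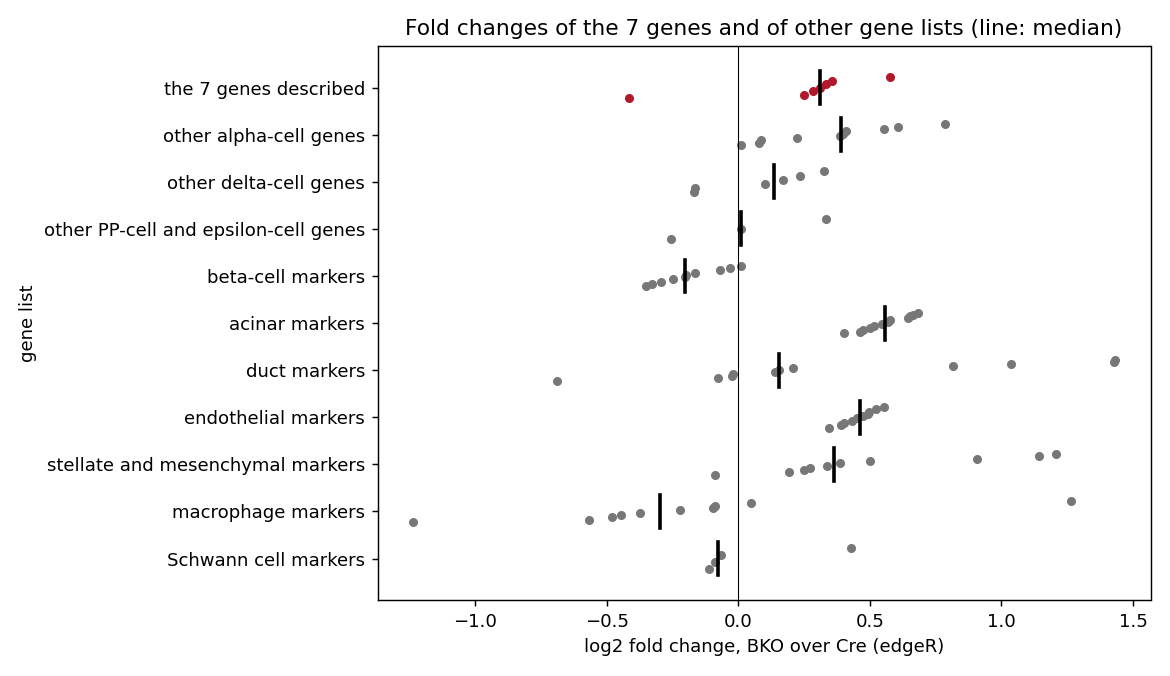
Log2 fold change of BKO over Cre (edgeR) of each tested gene, one row per list, with the vertical line at each list's median. The 7 genes have a median of 0.31 with Ghrl alone below 0, the β-cell markers a median of -0.20 and the endothelial markers a median of 0.46.

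Within a library, BKO islets had on average more glucagon reads per somatostatin read and per insulin read, and the other 6 ratios did not pass the test. The ratios were chosen with earlier results of these data known, so their p-values are not independent evidence. Such ratios do not depend on how libraries are scaled. There were on average 9.82 ± 1.58 Gcg reads per Sst read in BKO and 8.36 ± 0.444 in Cre (SD, n = 6 each), a difference of 0.22 on the log2 scale, with 6 of 6 BKO libraries above the Cre mean (p = 0.0108 by the exact two-sided permutation test, 0.0433 after Benjamini-Hochberg adjustment over the 8 ratios). BKO libraries ran from 8.68 to 12.9 and Cre libraries from 7.84 to 9.04, so the groups overlapped. BKO-1 was the highest, and without it the difference was 0.14 (adjusted p = 0.0952, exact permutation). The call was also lost without any single one of BKO-3, BKO-4, BKO-6 and the 6 Cre libraries (adjusted p between 0.0519 and 0.121, exact permutation).

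Gcg reads per insulin read (Ins1 and Ins2 summed) were 0.179 ± 0.0397 in BKO and 0.112 ± 0.0228 in Cre, a fold of 1.59 (SD, n = 6 each; exact two-sided permutation p = 0.0108, adjusted 0.0433). All 6 BKO libraries were above the Cre mean. The groups overlapped only through BKO-4, at 0.117, which was below Cre-1, Cre-5 and Cre-6, the highest of which reached 0.133. This call was lost without any single library other than BKO-4 (adjusted p between 0.0519 and 0.121, exact permutation), and the difference without each library ran from 0.55 to 0.78 on the log2 scale. Sst reads per insulin read were 0.0184 ± 0.00450 in BKO and 0.0134 ± 0.00273 in Cre (difference 0.45 on the log2 scale, adjusted p = 0.144, exact permutation), and Ppy reads per insulin read 0.0463 ± 0.0107 in BKO and 0.0360 ± 0.0124 in Cre (difference 0.41, adjusted p = 0.325, exact permutation).

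The ratio of Pyy to Ppy and the ratios among the delta-cell genes differed between genotypes by less than the SD between libraries. Pyy reads per Ppy read were 0.388 ± 0.0285 in BKO and 0.401 ± 0.0383 in Cre (difference -0.046 on the log2 scale, adjusted p = 0.845, exact permutation). Hhex reads per Sst read were 0.00981 ± 0.00119 in BKO and 0.00973 ± 0.000748 in Cre (difference 0.0070, adjusted p = 0.955, exact permutation), and Rbp4 reads per Sst read 0.0865 ± 0.0135 in BKO and 0.0880 ± 0.00747 in Cre (difference -0.034, adjusted p = 0.846, exact permutation). The ratio of Rbp4 to Hhex reads was 8.88 ± 1.35 in BKO and 9.07 ± 0.679 in Cre (difference -0.041, adjusted p = 0.846, exact permutation). Among the reads of the 5 hormones, Gcg held 68.4% ± 0.892 in BKO and 64.2% ± 3.32 in Cre, Ppy 17.7% ± 0.610 in BKO and 20.1% ± 3.30 in Cre, Pyy 6.85% ± 0.394 in BKO and 7.96% ± 0.522 in Cre, and Sst 7.08% ± 0.885 in BKO and 7.70% ± 0.624 in Cre (SD, n = 6 each; these shares were not tested).

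**Figure D3:**
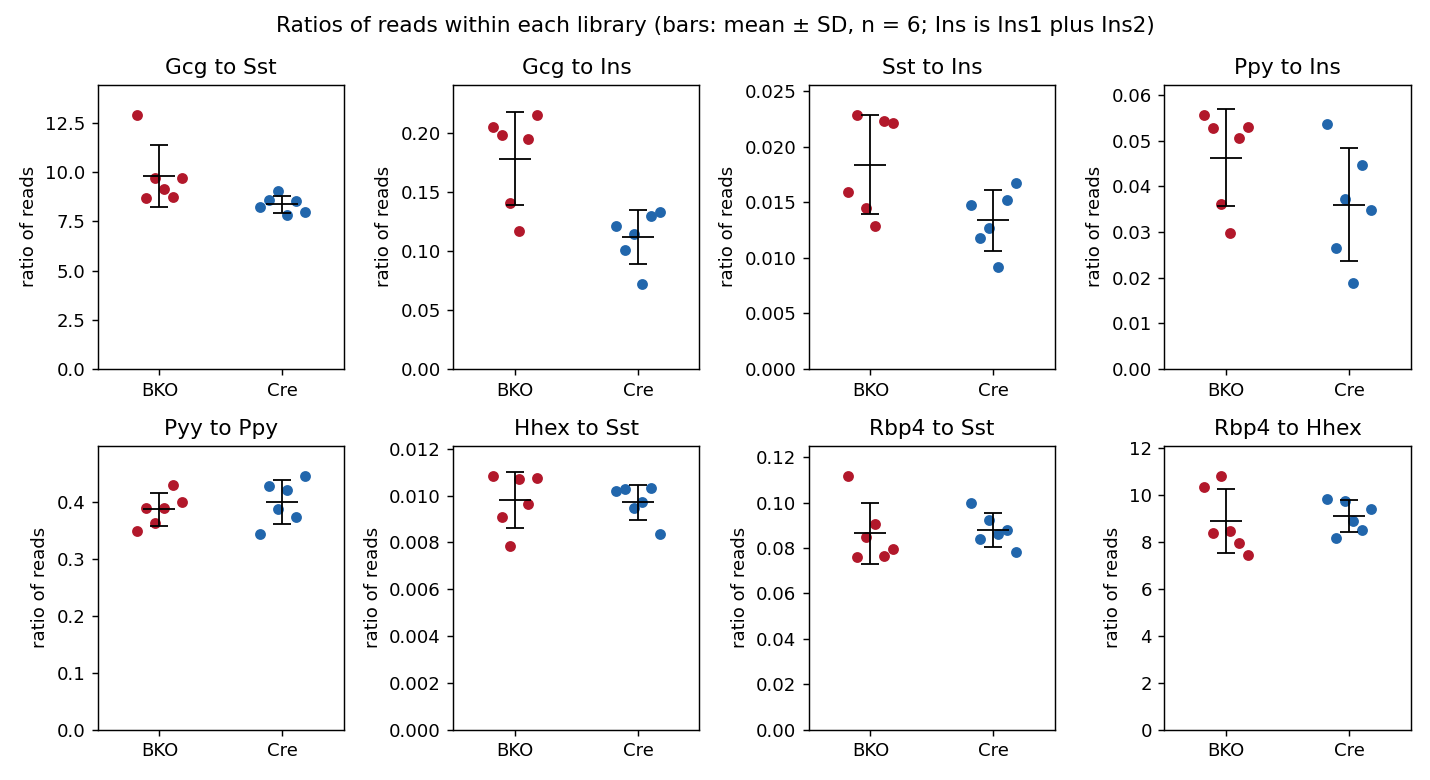
Ratios of reads within each library, BKO left and Cre right, with points for libraries and bars for the mean ± SD (n = 6 each); Ins is Ins1 plus Ins2. Gcg to Ins averages 0.179 in BKO and 0.112 in Cre, while Hhex to Sst averages 0.00981 in BKO and 0.00973 in Cre.

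Across libraries of the same genotype, 6 of the 7 genes went up and down together; whether Ghrl differs from them in this was not tested. Each gene's log2 CPM was taken as a deviation from its genotype mean, and all 21 pairs were compared over the 12 libraries with 100000 shuffles within genotype. All 15 pairs without Ghrl passed at a Benjamini-Hochberg adjusted p under 0.05, and 0 of the 6 pairs with Ghrl did. What share of pairs of other genes would pass was not tested, so the counts do not set these genes apart. These genes share library, scaling and tissue sample, so the deviations are not independent of one another. Ppy and Pyy had the highest Pearson r (Pearson r = 0.956, Spearman rho = 0.930, permutation p = 3e-05 and 6e-05, adjusted 0.00021 and 0.000473). Leaving out Cre-4 and BKO-1, the libraries farthest from the median of Ppy, gave r = 0.919.

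Pyy and Rbp4 had the highest rho, at 0.951, with r = 0.935 (permutation p = 2e-05 and 3e-05, adjusted 0.00042 and 0.00021; r = 0.937 without Cre-4 and BKO-4). Gcg and Rbp4 had r = 0.934 and rho = 0.944 (permutation p = 4e-05 and 7e-05, adjusted 0.00021 and 0.000473; r = 0.878 without BKO-1 and BKO-4). Rbp4 had r = 0.931 with Ppy (rho = 0.930, permutation p = 4e-05 and 9e-05, adjusted 0.00021 and 0.000473; r = 0.899 without Cre-4 and BKO-1), and r = 0.763 with Sst (rho = 0.804, permutation p = 0.00704 and 0.00441, adjusted 0.0114 and 0.00661; r = 0.721 without BKO-4 and Cre-6). Whether these r values differ from each other was not tested. Sst and Hhex had r = 0.813 and rho = 0.811 (permutation p = 0.0023 and 0.00362, adjusted 0.00483 and 0.00585; r = 0.874 without BKO-4 and Cre-6). The loosest of the 15 was Sst and Ppy, with r = 0.685 and rho = 0.720 (permutation p = 0.0212 and 0.0150, adjusted 0.0297 and 0.0210; r = 0.717 without BKO-4 and Cre-6).

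**Figure D4:**
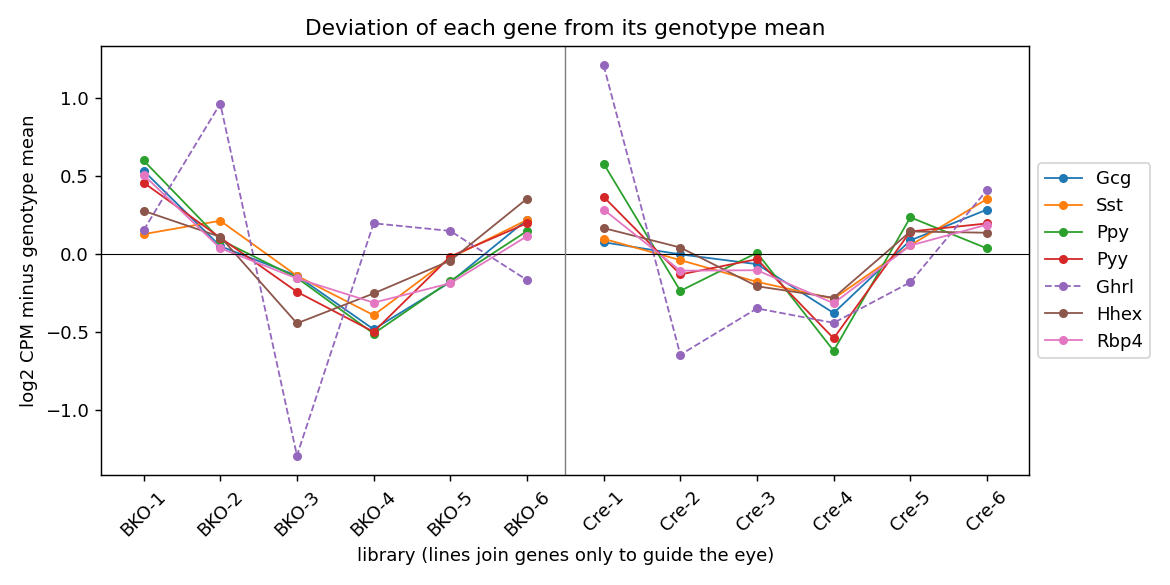
Log2 CPM of each gene minus its genotype mean, for the BKO libraries (left) and the Cre libraries (right); lines only guide the eye. BKO-1 is above the mean in all 7 genes, BKO-4 is below it in all but Ghrl, and Cre-4 is below it in all 7.

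**Figure D5:**
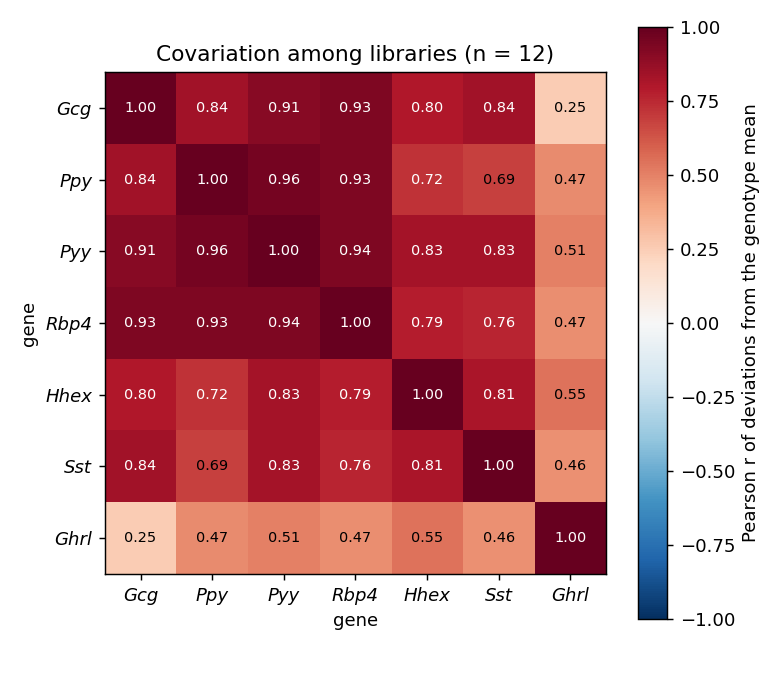
Pearson r between the deviations of each pair of genes over the 12 libraries. Pairs among Gcg, Ppy, Pyy, Rbp4, Hhex and Sst lie between 0.685 and 0.956, and pairs with Ghrl between 0.254 and 0.545.

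The genes whose deviations were most like each of these were taken from 11946 named genes of at least 1 in mean log2 CPM, as a description with no test. Picking the highest of so many r values over 12 libraries gives high values in part by the choice itself. For Gcg they were Pappa2, a protease of insulin-like growth factor binding proteins (r = 0.975 over 12 libraries), the transcription factor Etv1 (0.947) and Ttr, the thyroxine and retinol-binding protein carrier transthyretin (0.942). For Sst they were the adaptor protein Gab1 (0.955), the pyrimidine synthesis enzyme Dhodh (0.914) and Clstn3 (0.914). For Ppy they included Pyy and the chromatin remodeller Smarca1 (0.936), for Pyy they were Ppy, Rbp4 and Nyap1 (0.931), and for Rbp4 they were Rap1gap (0.943), Pyy and Gcg. Hhex had Dclk2 (0.911), Kmt2e (0.890) and the calcium channel subunit Cacna2d2 (0.888), and Ghrl had Tnip2 (0.886), Clec2d (0.884) and the hyaluronan synthase Has3 (0.860). Pappa2 averaged 104 ± 27.8 CPM across BKO and 78.3 ± 14.05 across Cre libraries (SD, n = 6 each), with a log2 fold change of 0.40 ± 0.18 (SE, edgeR adjusted p = 0.373).

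Other alpha-cell genes were on average higher in BKO islets, and other delta-cell genes lay on both sides of 0. All 10 tested alpha-cell genes other than Gcg had a positive log2 fold change (median 0.39), with 0 called by edgeR (0% of all genes), 7 higher at an unadjusted p under 0.05 (8.7% of all genes) and 2 called higher by DESeq2 (1.24%). They included the transcription factor Irx2 (0.55 ± 0.16, SE) and Ttr (0.61 ± 0.17). Of 6 delta-cell genes other than Sst, Hhex and Rbp4, 4 were positive and 2 negative (median 0.14), with 0 called by edgeR or DESeq2 and, at an unadjusted p under 0.05, 0 higher and 2 lower (4.66% of all genes). The calcium-sensing receptor Casr was at 75.5 ± 5.03 CPM across BKO and 84.7 ± 8.52 across Cre libraries, a log2 fold change of -0.17 ± 0.067 (SE, edgeR adjusted p = 0.294). Fxyd6, a regulator of the sodium pump, was at 87.0 ± 28.4 CPM across BKO and 69.5 ± 11.2 across Cre libraries (0.32 ± 0.21, adjusted p = 0.579 by edgeR). Casr is not made by delta cells alone. Of 5 PP-cell and epsilon-cell genes, a list drawn in part from human islets, 3 were tested: Etv1 (0.33 ± 0.15), Sertm1 (-0.26 ± 0.35) and Meis2 (0.011 ± 0.047). Mboat4, the enzyme that acylates ghrelin, was below the count filter.

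Receptors for these hormones were measured only in part. Of 13 listed, 7 passed the count filter, 5 with a positive and 2 with a negative log2 fold change (median 0.095), and none was called by edgeR (0% of all genes). These counts include Gipr (0.068 ± 0.23, SE), whose ligand is encoded by none of the genes described here. Glp1r, the receptor for the GLP-1 that proglucagon also gives rise to, was at 211 ± 17.3 CPM across BKO and 269 ± 27.4 across Cre libraries (-0.35 ± 0.071, SE), with an adjusted p of 0.121 by edgeR and of 0.00534 by DESeq2. Among the somatostatin receptors, Sstr3 was at 215 ± 7.46 CPM across BKO and 234 ± 21.2 across Cre libraries (-0.12 ± 0.059, edgeR adjusted p = 0.385), and Sstr2 at 4.46 ± 1.35 CPM across BKO and 3.26 ± 0.935 across Cre libraries (0.45 ± 0.23, edgeR adjusted p = 0.404). Gcgr, the glucagon receptor, had 0.095 ± 0.27, and the ghrelin receptor Ghsr, which in mouse islets marks delta cells, 0.10 ± 0.15. The neuropeptide Y receptors Npy1r, Npy2r, Npy4r and Npy5r, which bind pancreatic polypeptide or peptide YY, were below the filter, as were Sstr4 and Sstr5.

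Genes that process these peptides split by direction. Of 7 tested, 4 were positive and 3 negative (median 0.0044), with 0 called by edgeR or DESeq2 and, at an unadjusted p under 0.05, 1 higher (8.7% of all genes) and 1 lower (4.66%), close to the shares over all genes. The convertase Pcsk1, which in β cells cleaves proinsulin and in gut cells cleaves proglucagon to GLP-1, was at 580 ± 99.8 CPM across BKO and 719.6 ± 53.8 across Cre libraries (-0.31 ± 0.095, edgeR adjusted p = 0.192). Scg5, the chaperone of the other islet convertase, Pcsk2, was at 549 ± 79.2 CPM across BKO and 485 ± 40.4 across Cre libraries (0.18 ± 0.083, edgeR adjusted p = 0.361), and carboxypeptidase E (Cpe) had 0.068 ± 0.057.

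Beside Rbp4, all 9 tested genes of retinoid handling out of 14 listed had a positive log2 fold change (median 0.34), with 0 called by edgeR (0% of all genes) and 1 higher at an unadjusted p under 0.05 (8.7% of all genes). That gene was Ttr, the plasma partner of Rbp4, at 665 ± 177 CPM across BKO and 437 ± 64.1 across Cre libraries, which is also the 1 gene of the list called by DESeq2 (adjusted p = 0.0485) and is itself an alpha-cell gene. The retinol dehydrogenase Rdh10 was at 15.8 ± 1.68 CPM across BKO and 13.9 ± 1.16 across Cre libraries (0.18 ± 0.090, edgeR adjusted p = 0.394), and Aldh1a2, an enzyme of retinoic acid synthesis found in mesenchymal cells, at 0.968 ± 0.438 CPM across BKO and 0.576 ± 0.281 across Cre libraries (0.75 ± 0.40). Stra6, the receptor that takes up retinol from Rbp4, was below the filter.

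Of 13 tested transcription factors of islet endocrine lineages, a list that shares Irx1, Irx2 and Pou3f4 among others with the alpha-cell list, 9 were positive and 4 negative (median 0.086), with 0 called by edgeR. At an unadjusted p under 0.05, 4 were higher (8.7% of all genes) and 1 lower (4.66%). Nkx2-2, a factor of several islet lineages, was at 65.5 ± 3.97 CPM across BKO and 72.9 ± 4.11 across Cre libraries (-0.16 ± 0.055, SE; adjusted p = 0.237 by edgeR). The 10 β-cell markers lay on the other side of 0, with 9 negative and 1 positive (median -0.20), 0 called by edgeR, and 0 higher and 3 lower at an unadjusted p under 0.05 (4.66% of all genes). The 3 were Nkx6-1 (-0.20 ± 0.060, SE), Mafa (-0.35 ± 0.11) and Pdx1 (-0.25 ± 0.061), which Plut overlaps on the opposite strand, and Pdx1 was the 1 called lower by DESeq2 (0.398% of all genes; adjusted p = 0.0184).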

How the data were processed

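The authors' deposited per-sample files hold raw read counts per gene symbol, 1 library each, with 5 htseq-count summary lines that belong to no gene and entered neither library sizes nor tests. They held on average 9.90% (no feature), 1.21% (ambiguous), 18.6% (low alignment quality), 2.43% (not aligned) and 5.08% (not unique) of reads in BKO, and 9.41%, 1.18%, 20.2%, 2.47% and 5.02% in Cre. The share of low alignment quality was highest in Cre-1, at 27.3%, followed by Cre-6 at 22.2%. RNA was extracted with TRIzol and read as paired ends, per the labels' protocols; HISAT2 2.0.5, HTSeq and mm10 were used, per the submitters' processing notes. A series-wide table of scaled values was not used.

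The main test was edgeR 4.0.16 in R 4.3.3 (filterByExpr, TMM, robust glmQLFit, glmQLFTest, Benjamini-Hochberg over all 13583 genes at 0.05); CPM values use TMM-scaled library sizes, and log2 CPM a prior count of 2. Fold changes are BKO over Cre. Exact two-sided permutation tests used all 924 splits. Alternatives were DESeq2 1.42.0, limma 3.58.1 (voom), other scalings and filters, covariates, the replicate number as a block and each library left out. Libraries of a genotype differed by more than sampling noise (chi-square over degrees of freedom from 5.08 to 30.05), and each counted as 1 replicate.

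The genes, lists and ratios were chosen with earlier results of these data known, so their p-values are not independent evidence. Named beside the 7 genes were the 3 genes most like each, up to 3 genes of smallest p per list (Gcgr, Ghsr and Nkx2-2 were chosen after their values were seen), and the insulin genes. Some genes that this rule names are not reported here.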

Additional observations from a re-analysis of the deposited data

Results flagged for a closer look

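Of 30 sets of 6 libraries (7 genes and 8 ratios in each genotype), 1 had a library set far apart from the rest, where chance gives about 1 in 20. This was the ratio of Gcg to Sst reads in BKO-1, at 12.9, against a next highest value of 9.74 and a lowest of 8.68 among the other BKO libraries. The gap took 0.750 of the group's range, above Dixon's critical value for 6 samples. BKO-1 also had the highest Gcg, Ppy, Pyy and Rbp4 levels of all 12 libraries. The Cre libraries ran from 7.84 to 9.04 in this ratio.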

How the results depend on the processing

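No alternative reversed the sign of any of the 7 log2 fold changes. The count of genes called, 0 by edgeR, was 223 by DESeq2 and 364 with a replicate block, and ran from 0 to 262 (without BKO-4) when single libraries were left out, with 110 without Cre-5, 6 without Cre-1 and 5 without BKO-3. Same-numbered libraries did not all deviate together (correlations from -0.072 to 0.264, over 0.1 in 4 of 6). Of the 12 libraries, 7 were closest to their own number out of 6 candidates each, and whether that exceeds chance was not tested. The labels do not say what the numbers mean, so the main test does not take them to pair samples. With that replicate block Gcg (0.55, adjusted p = 0.00567), Sst (0.33, 0.00632), Pyy (0.24, 0.0316) and Rbp4 (0.30, 0.0159) were called by edgeR. The ratios of Gcg to Sst (0.22), Gcg to Ins (0.67) and Sst to Ins (0.45) were higher in BKO in every same-numbered pair. Each thus had the smallest p that an exact sign-flip test of 64 patterns can give, 0.0312. Adjusted over the 8 ratios this became 0.0833 for each, so the test had little room to call any ratio. DESeq2 called Gcg (0.56). Leaving out single libraries, log2 fold changes ran from 0.44 to 0.64 (Gcg), 0.27 to 0.40 (Sst), 0.14 to 0.40 (Ppy), 0.14 to 0.32 (Pyy), -0.68 to -0.072 (Ghrl), 0.27 to 0.44 (Hhex) and 0.19 to 0.36 (Rbp4), and ratio differences from 0.14 to 0.25 (Gcg to Sst), 0.55 to 0.78 (Gcg to Ins), -0.036 to 0.069 (Hhex to Sst), -0.11 to 0.0036 (Rbp4 to Sst) and -0.0997 to 0.0082 (Rbp4 to Hhex), the last 3 changing sign. RLE scaling gave the same 15 correlated pairs in number. The cause of these shifts was not tested. Ghrl rests on 14 to 124 reads per library, and its spread between libraries was 47.5% in BKO and 59.1% in Cre (coefficient of variation).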

Other observations

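Marker levels of other cell types were set against these genes from library to library, and no pair passed adjustment. Deviations of the mean log2 CPM of 7 other marker lists (β-cell, acinar, duct, endothelial, stellate and mesenchymal, macrophage and Schwann cell) from the genotype mean were compared with those of the 7 genes over the 12 libraries, 49 pairs in all, a comparison added after the data were examined. None had an adjusted p under 0.05, and the pairs of smallest p came from the macrophage and Schwann cell scores. The macrophage score had r = -0.750 and rho = -0.748 with Rbp4 (permutation p = 0.0105 and 0.0105, adjusted 0.229 and 0.209) and r = -0.749 and rho = -0.741 with Gcg (permutation p = 0.0107 and 0.0114, adjusted 0.229 and 0.209). Without BKO-1 and Cre-4, the libraries farthest from the median score, r was -0.493 with Rbp4 and -0.503 with Gcg. Within genotype the r with Gcg was -0.675 in BKO and -0.912 in Cre (n = 6 each). The Schwann cell score had r = 0.693 and rho = 0.650 with Ppy (permutation p = 0.0186 and 0.0346, adjusted 0.229 and 0.212) and r = 0.664 and rho = 0.636 with Pyy (permutation p = 0.0195 and 0.0339, adjusted 0.229 and 0.212). Without Cre-4 and BKO-3, r was 0.522 with Ppy and 0.338 with Pyy. Scores of the other alpha-cell and other delta-cell genes were not among the 49 pairs. As a description with no test, the alpha-cell score had r from 0.288 with Ghrl to 0.952 with Gcg. The delta-cell score had r from 0.119 with Ghrl to 0.89 with Gcg.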
